A study of Homo sapiens with 24 samples.

Results

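The genes described here are the MYC network, made up of MYC, its partner MAX and 4 antagonists of MYC, together with 32 factors of ribosome biogenesis. The 38 genes were chosen by symbol, as the rows of the deposited count table that carry their names. All 38 were found among the 26364 genes of the table, and all 38 passed the filter on low counts that left 15757 genes for testing. RNA sequencing was done on N/TERT-1 cells (nTERT-1 in the labels), an immortalised line of human keratinocytes, the cells that build the epidermis. The 4 genotypes were KAT2A_KD, KAT2B_KD, KAT2AB_KD (knockdown of both genes) and the control, labelled NT. Each was sampled in Subconfluent culture, in Confluent culture and as Differentiated cells, which the deposited sample table places at day 4 of differentiation, with 2 libraries in each of the 12 groups. All groups come from 1 line, and how the knockdowns were made, what NT stands for and whether the libraries of a group are separate cultures are not given in the sources used here. If they are not, the p-values measure only technical spread.

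MYC is a transcription factor that binds DNA as a pair with MAX, at the E-box sequence CACGTG, and is known for driving the transcription of genes for cell growth, ribosome biogenesis among them. MXD1, MXI1, MXD4 and MNT also pair with MAX, occupy the same sequence and recruit repressors. Ribosomes are built in the nucleolus: RNA polymerase I transcribes the rRNA precursor, small nucleolar ribonucleoproteins (snoRNPs) modify it, and separate sets of factors cut and fold it into the small and large subunits. In the epidermis, MYC is a gene of the dividing basal layer, and MXD1 is known from the differentiating layers above it. KAT2A and KAT2B are paralogous lysine acetyltransferases of the SAGA and ATAC coactivator complexes, and SAGA is a known cofactor of MYC.

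Because the E-box is where MYC and its antagonists meet, promoters were searched for its letters, CACGTG, a palindrome that reads the same on both strands. The RefSeq promoter table (GRCh38.p14) covers 250 bases before to 50 after each gene's start and held 40 promoters of 30 of the 38 genes. CACGTG was present in 14 of these 40 promoters (35.0%), belonging to 14 of the 30 genes, against 7.256% of all 35116 promoters in the table and 8.154% of the promoters of genes in the count table. Of the 120 promoters of other genes of the same pathways, 31 (25.833%) had it. Shown are 8 of the 14 windows, chosen by how their genes changed on differentiation: the 3 that did not pass the test (MNT, MXD4 and GAR1), the smallest fall (GNL3) and the 4 largest falls among genes with the motif (LYAR, RRP9, UTP20 and FBL). The motif was also present for BYSL, MYBBP1A, NOP2, NOP14, PES1 and WDR43, which fell. Each window is written 5′ to 3′ on the gene's own strand, with the motif in capitals.
MNT, chr17:2401236-2401265, minus strand: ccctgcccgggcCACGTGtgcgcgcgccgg
MXD4, chr4:2262330-2262359, minus strand: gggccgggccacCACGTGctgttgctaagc
GAR1, chr4:109815781-109815810, plus strand: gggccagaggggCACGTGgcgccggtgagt
GNL3, chr3:52686026-52686055, plus strand: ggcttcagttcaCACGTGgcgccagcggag
LYAR, chr4:4290068-4290097, minus strand: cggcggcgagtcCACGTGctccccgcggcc
RRP9, chr3:51941892-51941921, minus strand: gggttcagctgcCACGTGagttctgcggcc
UTP20, chr12:101280083-101280112, plus strand: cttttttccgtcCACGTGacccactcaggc
FBL, chr19:39846356-39846385, minus strand: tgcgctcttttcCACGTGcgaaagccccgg
The motif began 193 bases before the start of MNT, 238 before that of MXD4, 64 before that of LYAR, 10 before that of UTP20 and 5 before that of RRP9. In the other three it lay after the start, by 7 bases in FBL and GNL3 and 32 in GAR1. A match of these letters describes the sequence only and does not show binding.

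Library totals ran between 8010178 and 16054003 counts, and the libraries of a group correlated across genes with Pearson's r of 0.973 to 0.989. KAT2A was at 3.03 to 5.06 CPM (reads scaled to each library's TMM-adjusted size) in KAT2A_KD libraries, against 9.99 to 38.5 CPM in NT libraries, and at every stage both knockdown libraries were below both NT libraries. KAT2B was at 0.152 to 8.59 CPM in KAT2B_KD libraries, against 4.06 to 44.8 CPM in NT libraries, and again below both NT libraries of the same stage. In KAT2AB_KD, KAT2A was at 1.67 to 10.4 CPM and KAT2B at 0.902 to 18.9 CPM, each below both NT libraries of the same stage. At Subconfluent KAT2A was at 8.29 and 10.4 CPM there, against 3.46 and 4.12 CPM in KAT2A_KD. The 2 Confluent KAT2AB_KD libraries were unequal, with KAT2A at 7.35 and 1.67 CPM and KAT2B at 2.96 and 0.902 CPM. The 2 Differentiated KAT2AB_KD libraries were unequal too, with KAT2A at 1.98 and 6.85 CPM and KAT2B at 5.85 and 18.9 CPM. The basal keratinocyte markers KRT5, KRT14, TP63, ITGA6, ITGB4 and COL17A1 summed to 15600 to 17400 CPM at Subconfluent, 20000 to 29700 CPM at Confluent and 28800 to 50800 CPM at Differentiated. KRT5 (7110 to 22300 CPM over all libraries) and KRT14 (5280 to 26000 CPM) made up most of these sums. TP63 was at 89.8 to 293 CPM, and the sums do not describe the other markers one by one. The summed levels of 6 markers of differentiated keratinocytes were 400 to 561 CPM at Subconfluent, 520 to 913 at Confluent and 13900 to 43100 at Differentiated. Summed markers of fibroblasts, melanocytes, leukocytes and endothelial cells reached at most 53.3, 17.6, 61.3 and 3.46 CPM.

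Differentiation was where these genes moved. From Confluent to Differentiated culture, averaged over the 4 genotypes, MXD1 and MXI1 rose, while MYC and 31 of the 32 biogenesis genes fell. Thus 34 of 38 genes passed the test (edgeR quasi-likelihood test, Benjamini-Hochberg adjusted p under 0.05 over all genes tested), 2 higher and 32 lower. The step changed much of the transcriptome: 69.7% of all genes passed, 34.3% higher and 35.4% lower. The median log2 fold change was -1.63 over the 38 genes and -0.0177 over all genes.

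MYC stood at 114 to 178 CPM (median 156) in the 8 Subconfluent libraries, at 74.6 to 181 CPM (median 124) in the 8 Confluent libraries and at 27.4 to 62.3 CPM (median 40.2) in the 8 Differentiated libraries. Every Differentiated library was below every earlier one. MYC fell by 1.45 log2 on differentiation (2.73-fold, SE 0.137, adjusted p = 1.08e-08, edgeR).

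MXD1, an antagonist known to be induced as cells leave the cycle, stood at 4.51 to 7.86 CPM at Subconfluent, 4.0 to 7.56 CPM at Confluent and 27.4 to 62.1 CPM (median 44.9) at Differentiated. Its rise was 7.65-fold (log2 2.94, SE 0.140, adjusted p = 3.54e-13, edgeR). MXI1, a second member of that family, stood at 6.41 to 9.32 CPM, 5.89 to 11.6 CPM and 35.0 to 57.8 CPM (median 44.6) over the same stages, and rose 5.27-fold (log2 2.40, SE 0.117, adjusted p = 4.84e-13, edgeR). For both genes the 8 Differentiated libraries lay above all 16 earlier ones, which held for 13.7% of all genes. Their partner MAX did not pass, with a median of 27.6 CPM at Differentiated and 35.5 CPM at Confluent and overlapping libraries. MXD4 (medians of 35.7 and 32.0 CPM at Differentiated and Confluent) and MNT (8.67 and 9.27 CPM) did not pass either, with adjusted p-values (edgeR) of 0.24 and 0.525 against 0.155 for MAX. The antagonists thus split into 2 that rose and 2 that did not pass.

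**Figure D1:**
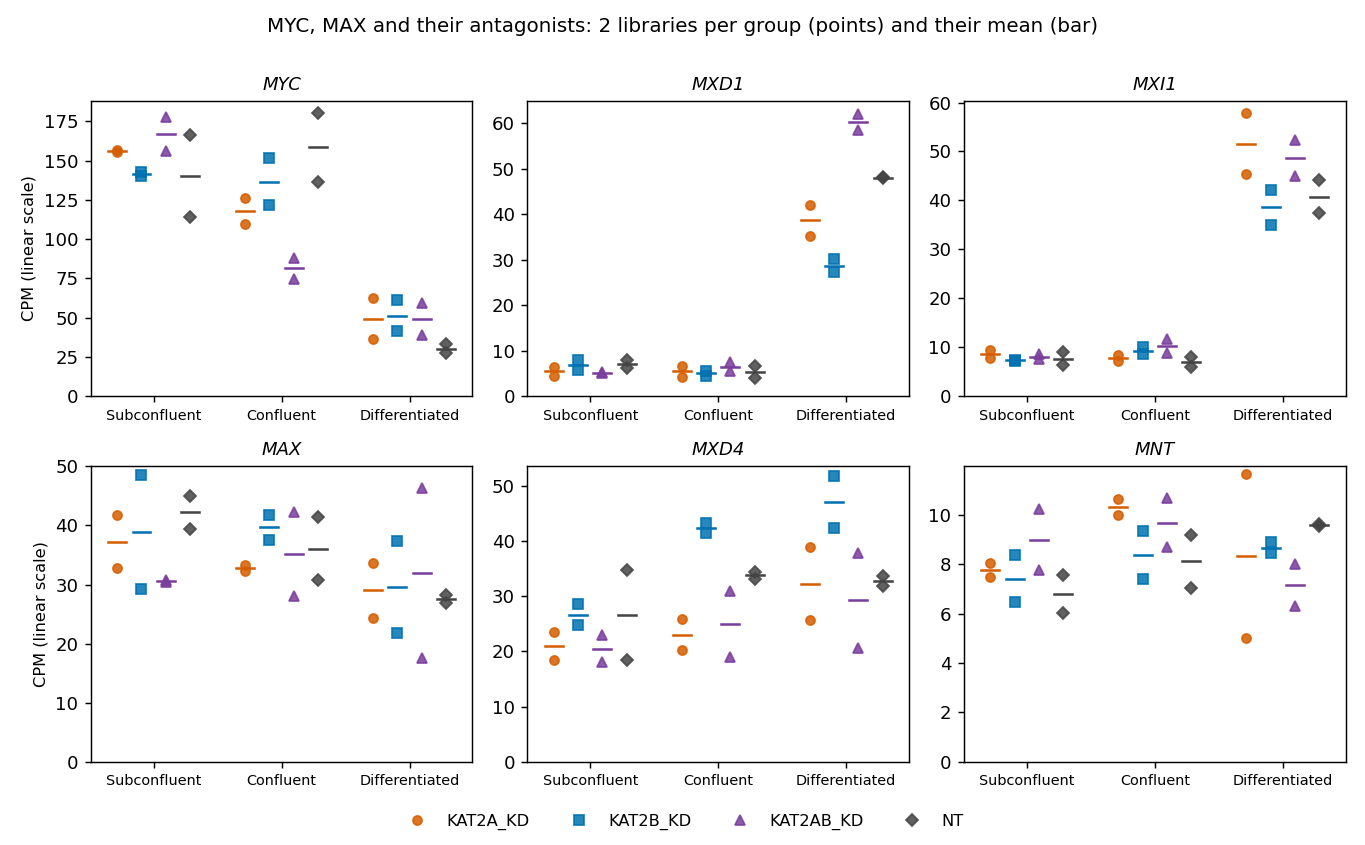
Levels of MYC, MAX and the 4 antagonists in CPM (linear scale, vertical axis) by culture stage (horizontal axis); each point is a library and each bar the mean of 2 libraries. MYC was at 27.4 to 62.3 CPM in Differentiated libraries, where MXD1 was at 27.4 to 62.1 CPM and MXI1 at 35.0 to 57.8 CPM, while MAX, MXD4 and MNT overlapped between stages.

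All 5 genes of rRNA transcription fell. TCOF1, which encodes the treacle protein that brings RNA polymerase I to its template, stood at 46.9 to 75.2 CPM at Subconfluent, 41.4 to 69.0 CPM at Confluent and 5.57 to 12.8 CPM at Differentiated. Its fall of 2.61 log2 (6.10-fold, SE 0.137, adjusted p = 1.52e-12, edgeR) was the largest of this group. NCL, which encodes the abundant nucleolar protein nucleolin, had medians of 181, 185 and 31.9 CPM over the 3 stages and fell by 2.26 log2. The polymerase's own 2 largest subunits fell less, POLR1A by 1.70 and POLR1B by 1.49 log2. MYBBP1A, a nucleolar MYB-binding protein, fell by 1.16 log2, with 15.9 to 29.7 CPM at Differentiated and 39.8 to 61.4 CPM at Confluent.

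Among the snoRNP proteins 6 of 7 fell. FBL encodes fibrillarin, the methyltransferase of the box C/D particles, and was at 14.5 to 88.6 CPM (median 32.8) in Differentiated libraries and at 102 to 186 CPM (median 131) in Confluent ones. It fell by 1.93 log2 (SE 0.166, adjusted p = 2.74e-09, edgeR). Its box C/D partners NOP56 and NOP58 fell by 1.81 and 1.62 log2, and DKC1 (the pseudouridine synthase dyskerin), its box H/ACA partner NHP2 and the snoRNP chaperone NOLC1 by 1.79, 1.69 and 1.64 log2. GAR1, the third H/ACA protein listed, was the exception, at 0.748 to 3.93 CPM in Differentiated and 1.06 to 5.65 CPM in Confluent libraries (log2 -0.33, SE 0.297, adjusted p = 0.328, edgeR). GAR1 had the fewest reads of the 38 genes, 8 to 118 counts per library, and its SE was the largest among them.

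The 6 small-subunit factors fell together. RRP9, which binds the U3 snoRNA, was at 4.34 to 10.5 CPM at Differentiated and 22.5 to 36.6 CPM at Confluent and fell by 2.42 log2 (5.34-fold, SE 0.145, adjusted p = 1.12e-11, edgeR). UTP20, a scaffold of the small-subunit processome, was at 8.44 to 17.9 CPM at Differentiated and 45.8 to 69.9 CPM at Confluent and fell by 2.33 log2. BYSL, RRP12, WDR43 and NOP14, which act on the same pre-ribosome, fell by 1.82, 1.67, 1.46 and 1.39 log2.

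All 12 large-subunit factors fell, over the widest range. NOP16 was at 5.68 to 11.04 CPM at Differentiated and 29.5 to 54.3 CPM at Confluent and fell by 2.37 log2 (5.17-fold, SE 0.125, adjusted p = 1.61e-12, edgeR). The 3 proteins of the PeBoW complex, BOP1, PES1 and WDR12, fell by 1.77, 1.52 and 1.34 log2. The rRNA methyltransferase NOP2 fell by 1.78 log2, and RRS1, GRWD1, WDR74, RRP1B and NIP7 by 1.99, 1.79, 1.71, 1.36 and 1.23 log2. The smallest falls were those of PPAN, by 1.02 log2, and of GNL3 (nucleostemin), by 0.69 log2 (1.61-fold, SE 0.0919, adjusted p = 1.38e-06, edgeR). GNL3 was at 24.3 to 41.6 CPM at Differentiated and 39.2 to 56.4 CPM at Confluent, so its libraries overlapped. PPAN shares sequence with the readthrough gene PPAN-P2RY11, which had 2.43 to 4.82 times its counts in each library, and its own level is uncertain.

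Of the other nucleolar genes, LYAR, a zinc-finger protein of the nucleolus, had the largest fall of the 38 genes, by 2.80 log2 (6.97-fold, SE 0.160, adjusted p = 5.55e-12, edgeR). It was at 1.49 to 3.46 CPM in Differentiated and 11.3 to 20.02 CPM in Confluent libraries. NPM1, the nucleolar chaperone nucleophosmin, was at 142 to 519.7 CPM (median 267) at Differentiated and 647 to 967 CPM (median 827) at Confluent and fell by 1.53 log2. NPM1 has many pseudogene copies, and how reads that map to several places were counted is not given, so its level is uncertain.

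**Figure D2:**
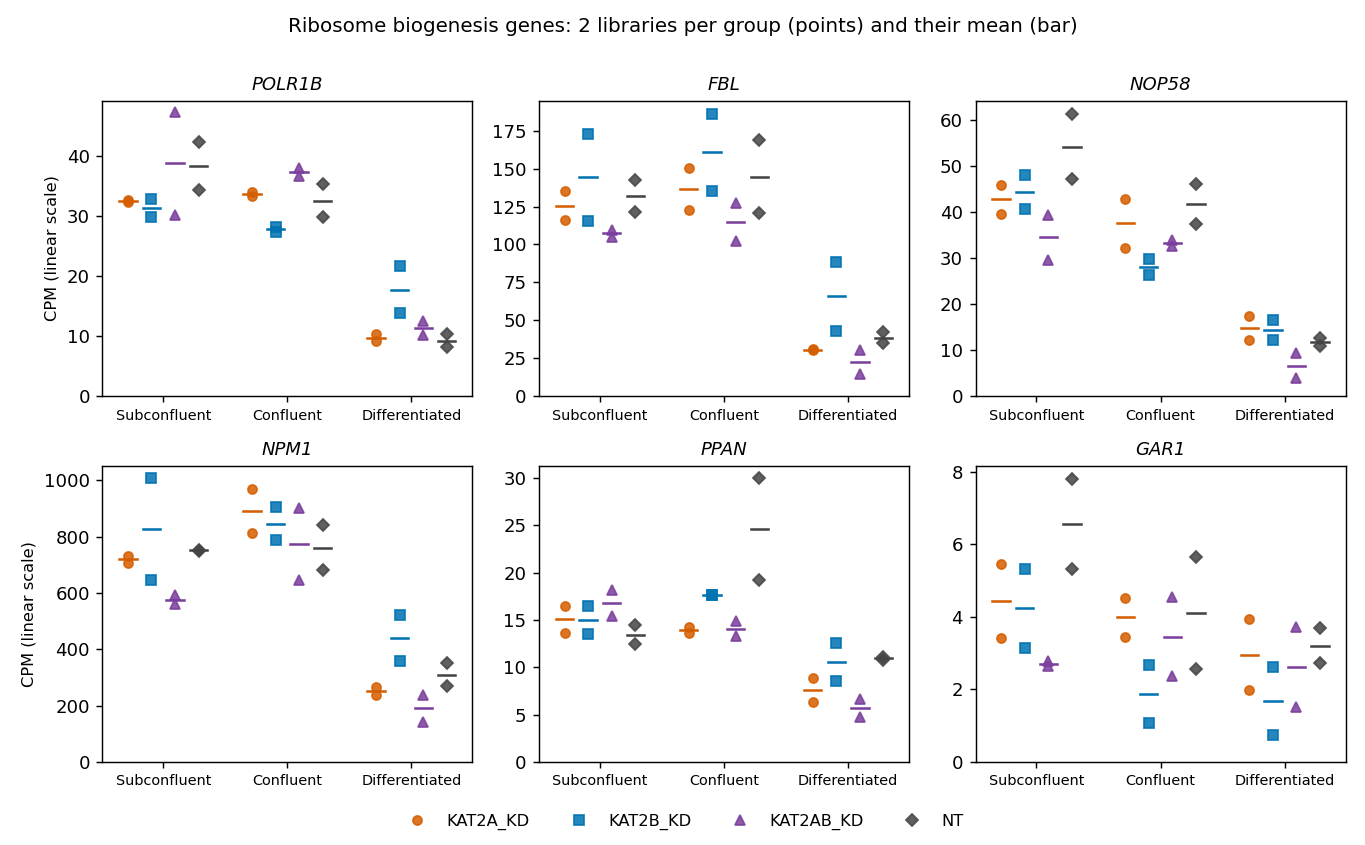
Levels of 6 biogenesis genes in CPM (linear scale, vertical axis) by culture stage; each point is a library and each bar the mean of 2 libraries. POLR1B, FBL, NOP58, NPM1 and PPAN were lowest at Differentiated, with the KAT2B_KD libraries of FBL at 88.6 and 43.0 CPM there. PPAN overlapped slightly, with up to 12.53 CPM at Differentiated and down to 12.42 CPM at Subconfluent. GAR1 stayed under 7.80 CPM and overlapped between stages.

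In 30 of the 38 genes (MYC and 29 biogenesis genes) all 8 Differentiated libraries were below all 16 earlier ones, which held for 14.6% of all genes. The mean log2 level of the 32 biogenesis genes (log2 of CPM plus 0.5) was 5.26 to 5.65 in the Subconfluent libraries, 5.29 to 5.76 in the Confluent libraries and 3.56 to 4.03 in the Differentiated libraries. In bulk RNA, fewer cells that express a gene and less of its RNA per cell cannot be told apart. The 10 proliferation genes measured, among them MCM5 and CCNB1, all fell at the same step, with a median log2 fold change of -4.76 and a summed level of 47.4 to 117 CPM at Differentiated against 1060 to 1360 CPM at Confluent. The summed fibroblast markers were at 31.5 to 53.3 CPM at Differentiated and 1.14 to 6.72 CPM at Confluent, mostly through COL1A1, and the leukocyte markers at 25.6 to 61.3 and 14.7 to 23.6 CPM, mostly through CD68, while the T-cell marker CD3E and the endothelial marker CDH5 had 0 counts. Their part in these changes was not tested.

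Other genes of the same pathways moved mostly downward too, at a step where 34.3% of all genes passed higher and 35.4% lower. Of 38 further small-subunit factors 35 passed, all lower, led by CIRH1A (UTP4, log2 -2.00) and the rRNA acetyltransferase NAT10 (-1.84). Of 42 further large-subunit factors 36 fell and 4 rose, and MRTO4 had the lowest p among those that fell (log2 -2.38). Of 13 further genes of RNA polymerase I and its initiation factors 9 fell and 1 rose, with the subunits POLR1E and POLR1C at log2 -1.58 and -1.32. Among 7 further snoRNP genes 5 fell, including the assembly factors NUFIP1 (log2 -1.71) and SHQ1 (-1.29), and 1 rose. The median log2 fold changes of these 4 lists were -1.04, -0.92, -0.55 and -0.73. The wider MYC network was mixed, with 3 higher and 6 lower among 12 tested, so the share that passed was close to the 69.7% of all genes. The ATPase genes RUVBL1 and RUVBL2 (log2 -2.43 and -1.84) and SKP2 (-1.56) fell there, while the MYC paralog MYCL rose (2.16).

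Within each genotype the same 32 genes fell and the same 2 rose on differentiation, and MAX, MXD4, MNT and GAR1 passed in none. Of all genes, 43.1% passed in KAT2A_KD, 39.6% in KAT2B_KD, 46.2% in KAT2AB_KD and 50.4% in NT. The share that fell was 21.7% in KAT2A_KD, 20.3% in KAT2B_KD, 23.6% in KAT2AB_KD and 26.1% in NT, and 21.4%, 19.3%, 22.6% and 24.3% rose. The median log2 fold change of the 38 genes was -1.68 in KAT2A_KD, -1.27 in KAT2B_KD, -1.72 in KAT2AB_KD and -1.82 in NT. Some of these calls rest on single libraries. Leaving out 1 library of the genotype left between 28 and 31 genes called in KAT2B_KD, 32 and 35 in KAT2A_KD and in KAT2AB_KD, and 34 in NT. In KAT2B_KD, leaving out replicate 2 of Differentiated lost FBL, NPM1, NIP7, RRS1, PPAN and GNL3 (log2 -0.85, -0.69, -0.66, -1.02, -0.48 and -0.61; adjusted p of 0.0537 to 0.242, edgeR). Leaving out replicate 1 of Differentiated lost POLR1B, NOP58 and GNL3 (log2 -0.32, -0.73 and -0.56; adjusted p of 0.074 to 0.374). Without replicate 1 of KAT2B_KD Confluent the calls lost were POLR1B, NPM1, PPAN and GNL3 (log2 -0.65, -0.83, -0.74 and -0.62; adjusted p of 0.0529 to 0.108), and without replicate 2 POLR1B, NOP58, RRS1, PPAN and GNL3 (log2 -0.59, -0.85, -0.82, -0.72 and -0.56; adjusted p of 0.0734 to 0.157). In KAT2A_KD, GNL3 and PPAN were lost without replicate 2 of Differentiated (log2 -0.25 and -0.64) or replicate 1 of Confluent (-0.50 and -0.84), and GNL3 also without replicate 2 of Confluent (-0.53). In KAT2AB_KD, NIP7 was lost without replicate 2 of Differentiated (log2 -0.63), and MYC without that library (-0.47) or replicate 2 of Confluent (-0.61).

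The 31 biogenesis genes that fell did so by a median of 1.78 log2 in KAT2A_KD, 1.29 in KAT2B_KD, 1.77 in KAT2AB_KD and 1.91 in NT. The smallest of a gene's 4 falls was in KAT2B_KD for 25 of the 31 genes, in KAT2AB_KD for 3, in NT for 2 and in KAT2A_KD for 1. Among all 5585 genes that fell on average, KAT2B_KD had the smallest fall for 41.2%. Gene by gene, however, the difference between KAT2B_KD and NT in this step did not pass for any of the 38 genes by edgeR, where 0.888% of all genes passed. The smallest adjusted p was 0.0884, for WDR43 (edgeR). An unadjusted p under 0.05 was found for 9 genes, and DESeq2 called 3. The difference between KAT2A_KD and NT did not pass for any either (4 with an unadjusted p under 0.05; 0.616% of all genes passed).

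**Figure D3:**
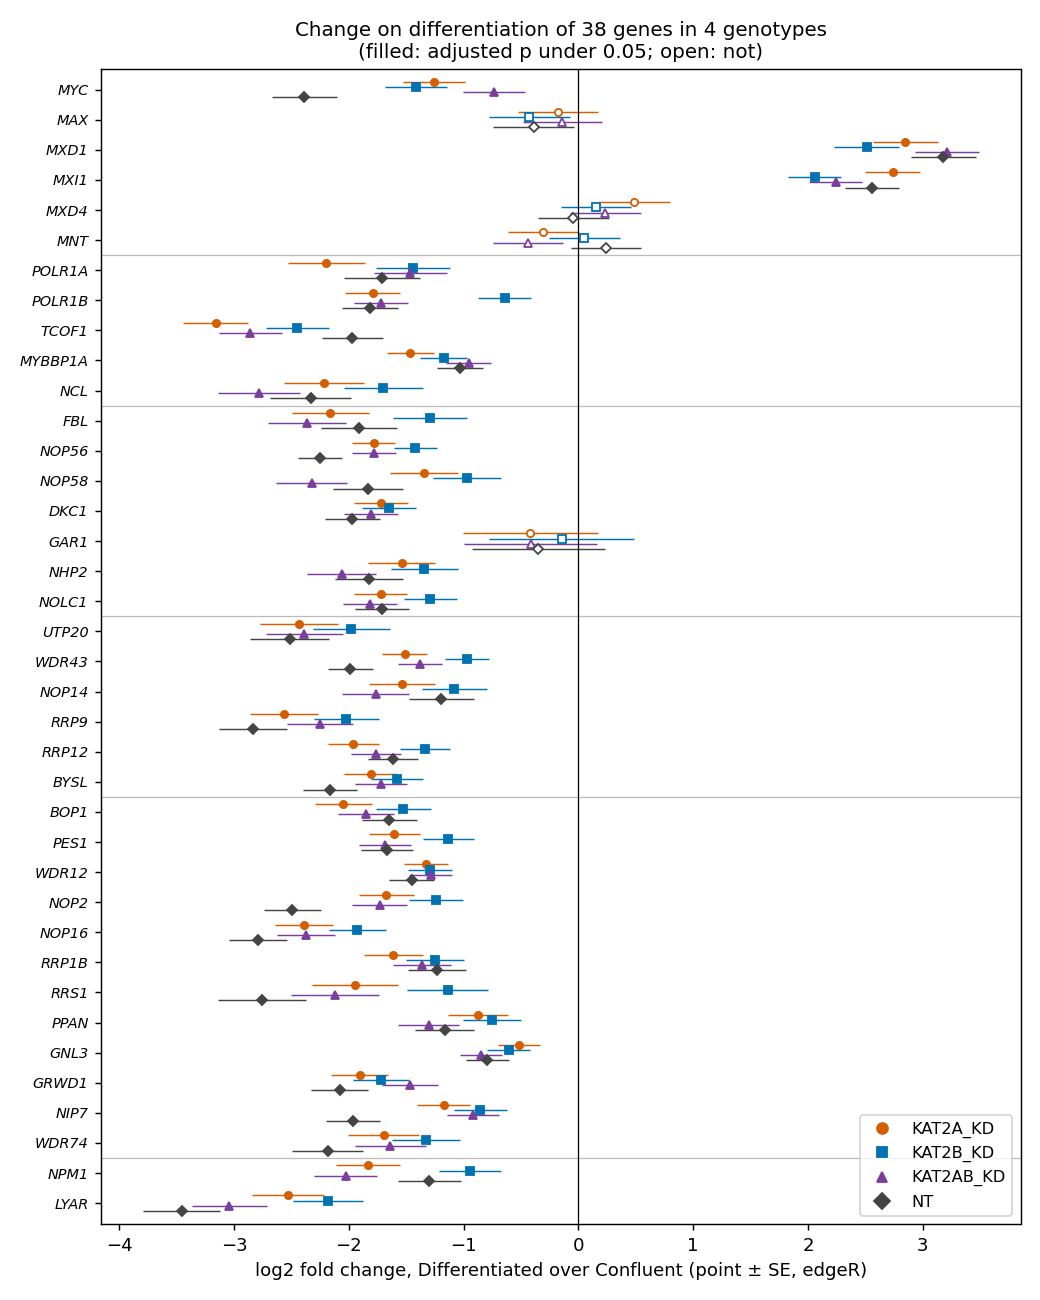
Log2 fold change, Differentiated over Confluent (horizontal axis, point ± SE from edgeR), of the 38 genes (rows, grouped by role) in each genotype; filled symbols passed at adjusted p under 0.05. In each genotype 32 genes lie left of 0 as filled symbols, MXD1 and MXI1 lie right of it, and MAX, MXD4, MNT and GAR1 are open; MYC lies at -0.73 in KAT2AB_KD and -2.39 in NT.

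MYC itself was the 1 gene whose fall on differentiation differed from NT by that test. In KAT2AB_KD it was at 59.1 and 38.8 CPM when Differentiated and at 74.6 and 88.1 CPM when Confluent, a change of -0.73 log2 (adjusted p = 0.0318, edgeR). In NT it was at 33.2 and 27.4 CPM when Differentiated and at 181 and 136 CPM when Confluent, a change of -2.39 log2 (adjusted p = 8.73e-07, edgeR). The KAT2AB_KD libraries were thus above NT at Differentiated, which held for 21.9% of all genes, and below NT at Confluent, which held for 20.8%. The difference between the 2 changes was 1.65 log2 (SE 0.382, adjusted p = 0.0343, edgeR), where 1.33% of all genes passed. The difference stayed at 1.32 to 1.80 log2 but no longer passed on leaving out replicate 1 or 2 of KAT2AB_KD Confluent (log2 1.53 and 1.75, adjusted p = 0.147 and 0.0641, edgeR) or replicate 1 of KAT2AB_KD Differentiated (1.32, 0.158). The same held for replicate 1 of NT Confluent (1.43, 0.165) and replicate 1 or 2 of NT Differentiated (1.80 and 1.51, 0.0651 and 0.154). In KAT2A_KD and KAT2B_KD the fall of MYC was 1.26 and 1.42 log2. The difference from NT went the same way there, 1.13 and 0.97 log2, but did not pass (adjusted p = 0.284 and 0.292, edgeR). These differences share the NT libraries, and KAT2AB_KD was not tested against the single knockdowns for this change.

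From Subconfluent to Confluent culture 0 of 38 genes passed over the 4 genotypes (edgeR; 9 with an unadjusted p under 0.05), while 9.15% of all genes did. The closest were the PeBoW gene PES1, at 56.4 to 106 CPM in Confluent and 50.1 to 69.1 CPM in Subconfluent libraries (adjusted p = 0.101), and GNL3, at 39.2 to 56.4 and 49.1 to 62.2 CPM (adjusted p = 0.105). Within single genotypes 0 of 38 passed as well, against 0.235% of all genes in KAT2A_KD, 1.61% in KAT2B_KD, 0.609% in KAT2AB_KD and 0.901% in NT. The unadjusted p was under 0.05 for 0, 3, 1 and 2 genes, and DESeq2 called 1 gene each in KAT2AB_KD and NT. MYC in KAT2AB_KD, with 74.6 and 88.1 CPM at Confluent and 178 and 156 CPM at Subconfluent, had an adjusted p of 0.096 (edgeR). The difference of KAT2A_KD, KAT2B_KD or KAT2AB_KD from NT in this step passed for 0 of 38 genes (edgeR; 1, 0 and 2 with an unadjusted p under 0.05) and for 0% of all genes. Of the wider lists, 1 gene of 112 tested passed over the 4 genotypes, the U3 snoRNP protein gene IMP3 (log2 0.47, adjusted p = 0.0336, edgeR).

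The knockdowns were then set against NT; these comparisons share the NT libraries. Averaged over the 3 stages, 0 of 38 genes passed in KAT2A_KD (edgeR; 5 with an unadjusted p under 0.05; 1.94% of all genes passed) and 0 in KAT2B_KD (2 with an unadjusted p under 0.05; 2.42% of all genes). DESeq2 called 1 gene in KAT2B_KD, where the smallest adjusted p by edgeR was 0.0592, for MYBBP1A. In KAT2AB_KD 1 gene passed, where 7.48% of all genes did. This was NOP58, the box C/D core protein, which was at 39.3 and 29.6 CPM in KAT2AB_KD and 61.3 and 47.0 CPM in NT at Subconfluent, at 33.8 and 32.7 against 46.0 and 37.3 CPM at Confluent, and at 3.87 and 9.36 against 12.5 and 10.8 CPM at Differentiated. Both KAT2AB_KD libraries were below both NT libraries at each stage. Taken alone, this held for 25.2% of all genes at Subconfluent, 20.8% at Confluent and 19.7% at Differentiated. NOP58 fell by 0.60 log2 (SE 0.170, adjusted p = 0.0360, edgeR). The adjusted p was 0.069 to 0.111 without any 1 of 8 of the 12 libraries (all but replicate 1 of KAT2AB_KD Subconfluent, replicate 2 of KAT2AB_KD Differentiated, and replicate 2 of NT Subconfluent and of NT Confluent), and 0.204 when libraries were scaled by their totals alone.

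Across the 38 genes the KAT2AB_KD fold change over 3 stages was below 0 for 30, with a median of -0.15 log2 against 0.00876 over all genes. The count below 0 depends on how the libraries were scaled. An unadjusted p under 0.05 was found for 13 of the 38 genes, and the share of all genes under it was not counted. Of the 13 genes, 1 passed after adjustment, where 7.48% of all genes passed. Of the wider lists, the RNA polymerase I subunit gene CD3EAP (log2 -0.50) and the large-subunit factors EBNA1BP2, NLE1 and TEX10 (-0.57, -0.62 and -0.34) fell in KAT2AB_KD. In KAT2A_KD the snoRNP assembly factor NUFIP1 rose (0.70), and in KAT2B_KD the large-subunit release factor SBDS fell (-0.42). Of all genes 7.48% passed in KAT2AB_KD, 1.94% in KAT2A_KD and 2.42% in KAT2B_KD. These few calls do not show a higher rate in the lists.

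At single stages, 0 of 38 genes passed in 8 of the 9 comparisons with NT. At Subconfluent the share of all genes that passed was 0.343% in KAT2A_KD, 0.0888% in KAT2B_KD and 2.7% in KAT2AB_KD, and 0, 0 and 5 of the 38 genes had an unadjusted p under 0.05 (edgeR). At Confluent these shares were 0.647%, 0.463% and 2.28%, with 5, 5 and 10 genes under 0.05, and DESeq2 called 2 genes in KAT2AB_KD. The closest there was MYC in KAT2AB_KD, at 74.6 and 88.1 CPM against 181 and 136 CPM in NT (log2 -0.96, adjusted p = 0.0694, edgeR). At Differentiated the shares were 1.22%, 4.85% and 2.74%, with 5, 11 and 8 genes under 0.05, and DESeq2 called 1 gene in KAT2AB_KD. MYC was at 62.3 and 36.2 CPM in KAT2A_KD, 60.9 and 41.5 CPM in KAT2B_KD and 59.1 and 38.8 CPM in KAT2AB_KD, against 33.2 and 27.4 CPM in NT. Each knockdown library was above both NT libraries, which held for 22.6%, 20.6% and 21.9% of all genes in these 3 comparisons. None of the 3 differences passed (log2 0.70, 0.76 and 0.69, adjusted p = 0.249, 0.125 and 0.205, edgeR).

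The 1 gene that passed at a single stage was POLR1B, the second-largest subunit of RNA polymerase I, in Differentiated KAT2B_KD cells. It was at 13.8 and 21.7 CPM in KAT2B_KD and 10.3 and 8.20 CPM in NT, and was 1.92-fold higher (log2 0.94, SE 0.242, adjusted p = 0.0283, edgeR), where 1.67% of all genes were called higher. The call was lost without replicate 2 of KAT2B_KD Differentiated (log2 0.56, adjusted p = 0.246), replicate 1 or 2 of NT Differentiated (0.0714 and 0.237), or with library totals alone (0.11). At this stage 27 of the 38 genes had a KAT2B_KD fold change above 0, with a median of 0.27 log2 against 0.0189 over all genes. This count depends on how the libraries were scaled, and the 2 KAT2B_KD libraries had unequal TMM factors, 0.666 and 0.910. Both KAT2B_KD libraries were above both NT libraries for 13 genes and below both for 6, which held for 20.6% and 22.7% of all genes. Of the wider lists NUFIP1 (log2 1.61), NAT10 (1.01) and the helicase DDX10 (0.88) rose and SBDS fell (-0.66) in KAT2B_KD. Of all genes 4.85% passed there, and these few calls do not show a higher rate in the lists. NUFIP1 was also higher than NT at this stage in KAT2A_KD (log2 1.96) and KAT2AB_KD (1.41), where 1.22% and 2.74% of all genes passed. In KAT2AB_KD the polymerase I factor TAF1A (1.97) and the small-subunit factor UTP23 (1.11) rose, and MYCL (-1.27), POLR1E (-1.14) and NLE1 (-1.27) fell. Proliferation genes moved at the same place: 6 of 10 rose, and their summed level was 98.6 and 117 CPM in KAT2B_KD, against 53.5 and 47.4 CPM in NT. In KAT2A_KD that sum was 81.8 and 98.9 CPM, with 2 of 10 genes called higher, while POLR1B was at 10.3 and 9.16 CPM. The part of these genes in the POLR1B result was not tested.

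**Figure D4:**
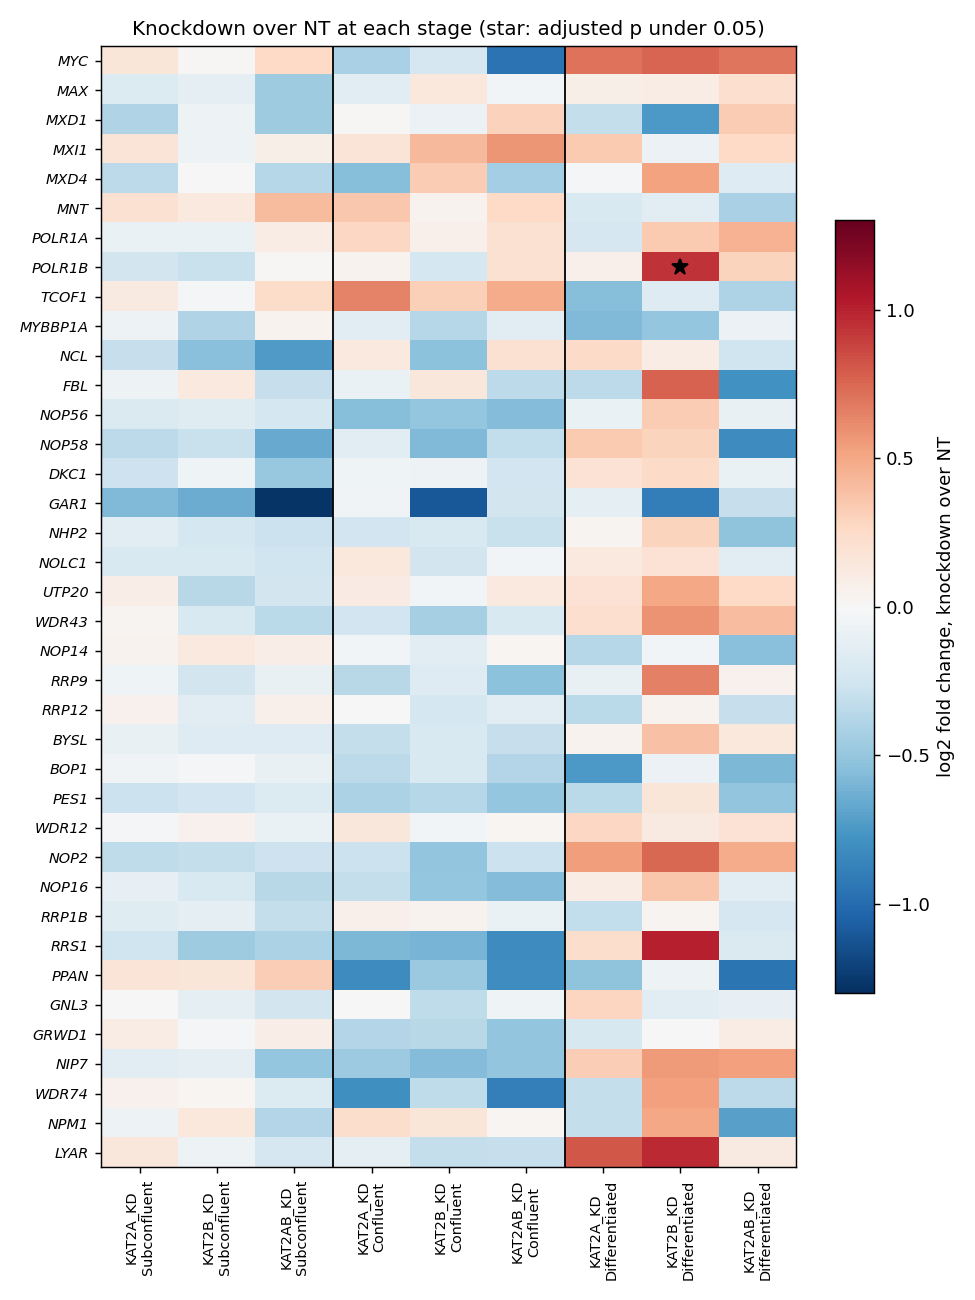
Log2 fold change, knockdown over NT (colour scale), of the 38 genes (rows) at each stage (columns); a star marks adjusted p under 0.05. The single star is POLR1B in Differentiated KAT2B_KD cells (0.94); MYC is at 0.69 to 0.76 in the Differentiated columns and at -0.96 in Confluent KAT2AB_KD cells.

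Set against each other, the knockdowns differed in some of these genes in 1 of 9 comparisons, which also had the largest share of all genes passing (11%). KAT2A_KD and KAT2B_KD differed in 0 of 38 genes at Subconfluent, Confluent and Differentiated, against 0.533%, 0.286% and 2.38% of all genes (edgeR). The unadjusted p was under 0.05 for 0, 1 and 9 of the 38 genes, and DESeq2 called 3 at Differentiated. KAT2AB_KD and KAT2A_KD differed in 0 of 38 at each stage as well, against 0%, 0.00635% and 0.317% of all genes (edgeR). Here 0, 0 and 3 genes had an unadjusted p under 0.05, and DESeq2 called 1 at Differentiated. KAT2AB_KD against KAT2B_KD gave 0 at Subconfluent and Confluent (1 and 3 with an unadjusted p under 0.05; 2.61% and 1.61% of all genes passed).

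In Differentiated cells 5 of 38 genes differed between KAT2AB_KD and KAT2B_KD, 1 higher and 4 lower. Of all genes 11% passed, 6.5% higher and 4.54% lower, so the total share of the 38 that passed was close to that of all genes. FBL was at 30.1 and 14.5 CPM in KAT2AB_KD and 88.6 and 43.0 CPM in KAT2B_KD, and was 2.95-fold lower (log2 -1.56, SE 0.332, adjusted p = 0.00466, edgeR). NPM1 was at 238 and 142 CPM in KAT2AB_KD and 519.7 and 359.7 CPM in KAT2B_KD (log2 -1.21, adjusted p = 0.00673, edgeR). In these genes, as in NOP58 and PPAN, both KAT2AB_KD libraries lay below both KAT2B_KD libraries, which held for 21.6% of all genes. NOP58 was at 3.87 and 9.36 CPM in KAT2AB_KD and 12.1 and 16.4 CPM in KAT2B_KD (log2 -1.10, adjusted p = 0.0263, edgeR), and PPAN at 6.59 and 4.79 against 12.5 and 8.52 CPM (log2 -0.88, adjusted p = 0.0366, edgeR). The antagonist MXD1 went the other way, at 58.6 and 62.1 CPM in KAT2AB_KD and 30.0 and 27.4 CPM in KAT2B_KD (log2 1.07, SE 0.254, adjusted p = 0.00965, edgeR). NT lay between these values for MXD1, at 47.8 and 48.1 CPM.

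Each of these 5 differences kept its direction but no longer passed on leaving out some 1 of the 4 libraries. Without replicate 1 of KAT2B_KD Differentiated the log2 fold change was -0.96 for FBL, -0.94 for NPM1, -0.59 for PPAN and 1.13 for MXD1 (adjusted p = 0.124, 0.0901, 0.342 and 0.06 in the same order, edgeR). Without replicate 2 of KAT2AB_KD Differentiated it was -1.13, -0.89, -0.67 and 1.03 for these genes (adjusted p = 0.0739, 0.0935, 0.244 and 0.0515, edgeR). MXD1 had 1.03 without replicate 2 of KAT2B_KD Differentiated (0.0518). NOP58 had -0.84 without that library (0.146) and -0.60 without replicate 1 of KAT2AB_KD Differentiated (0.239). Both KAT2AB_KD libraries were below both KAT2B_KD libraries for 20 of the 38 genes and above both for 2, against 21.6% and 24% of all genes. The summed proliferation genes were at 54.2 and 63.0 CPM in KAT2AB_KD and 98.6 and 117 CPM in KAT2B_KD, and 5 of 10 fell. Their part in these differences was not tested.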

How the data were processed

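The 24 libraries were made from polyA-selected RNA with a directional kit and read single-end, per the labels. The deposited raw table holds read counts per gene; per the submitters' processing notes FastQC, Bowtie2, featureCounts, DESeq2 and the build hg19 were used, without versions; the strand setting and how multi-mapping reads were counted are not given in the sources used here, so near-identical, overlapping and antisense genes (NOP14-AS1, RRS1-AS1) are uncertain. A second deposited table of normalized signal values equals those counts divided by 1 factor per library (largest relative deviation 5e-07) and served as a check. Of the count columns, 1 matched no sample and was not used, and 28 gene symbols had become dates, none of them a gene named here.

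Counts were tested in R 4.3.3 with edgeR 4.0.16: filterByExpr by group, TMM factors, and 1 quasi-likelihood fit of 12 groups without covariates (12 residual degrees of freedom, biological coefficient of variation 0.218), with Benjamini-Hochberg adjustment over 15757 genes in each of 37 comparisons and a threshold of 0.05. The alternatives were RLE size factors, library totals alone, no low-count filter, a replicate block, DESeq2 1.42.0 and leaving out each library. Shares of all genes that passed are edgeR calls after adjustment, also where a DESeq2 count stands beside them. Counts of genes with an unadjusted p under 0.05 have no such share, so they cannot be set against the general rate. Each of the 38 genes may be named; from the wider lists, at most the 4 called genes with the lowest p per comparison. The genes and lists were chosen with earlier results of these data known. Replicate numbers were not taken as pairs: same-numbered libraries deviated together only weakly (median r 0.136), and r exceeded 0.1 for 38 of the 66 group pairs. Library totals were 8010178 to 16054003 counts, and the 38 genes had 8 (GAR1) to 13223 (NPM1) counts in a library.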

Additional observations from a re-analysis of the deposited data

Results flagged for a closer look

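The difference between KAT2AB_KD and NT in the change of MYC from Confluent to Differentiated, 1.65 log2 (adjusted p = 0.0343, edgeR), passed a test of the difference between groups itself. MYC was below NT in both Confluent and above NT in both Differentiated KAT2AB_KD libraries, which held for 20.8% and 21.9% of all genes, each stage taken alone. The difference was 1.32 to 1.80 log2 but did not pass when any 1 of 6 of the 8 libraries was left out.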

How the results depend on the processing

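Of 178 calls of single genes, 178 held with RLE size factors, with DESeq2 and with a replicate block, 174 with library totals alone, 175 without the low-count filter and 158 whichever library was left out; none changed direction. Library totals alone moved the median of all genes by -0.398 log2 on differentiation and by 0.139 in KAT2AB_KD over 3 stages, and changes are given relative to that. Counts of the 38 genes called moved as follows. With library totals alone they were 2 for Confluent minus Subconfluent over 4 genotypes and 1 in KAT2AB_KD, 0 for KAT2AB_KD minus NT over 3 stages, and at Differentiated 0 for KAT2B_KD minus NT, 2 for KAT2A_KD minus KAT2B_KD and 3 for KAT2AB_KD minus KAT2B_KD. Without the low-count filter they were 1 for Confluent minus Subconfluent in KAT2AB_KD, 1 for KAT2B_KD and 3 for KAT2AB_KD minus NT over 3 stages, 2 for KAT2AB_KD minus NT at Confluent, and at Differentiated 3 for KAT2B_KD and 1 for KAT2AB_KD minus NT, 2 for KAT2A_KD minus KAT2B_KD, 1 for KAT2AB_KD minus KAT2A_KD and 8 for KAT2AB_KD minus KAT2B_KD. With the replicate block, which describes a shared number and not a shared culture, they were 2 for KAT2AB_KD minus NT over 3 stages, 1 for KAT2AB_KD minus NT at Confluent and 1 for KAT2A_KD minus KAT2B_KD at Differentiated. DESeq2 called 1 gene for Confluent minus Subconfluent in KAT2AB_KD and 1 in NT, 1 for KAT2B_KD and 3 for KAT2AB_KD minus NT over 3 stages, 2 for KAT2AB_KD minus NT at Confluent, and at Differentiated 1 for KAT2AB_KD minus NT, 3 for KAT2A_KD minus KAT2B_KD and 1 for KAT2AB_KD minus KAT2A_KD, and 3 for KAT2B_KD less NT in Differentiated minus Confluent. DESeq2 gave 0 in each other comparison in which edgeR gave 0. Leaving out 1 library gave 34 to 35 for Differentiated minus Confluent over 4 genotypes, 0 to 1 for Confluent minus Subconfluent over 4 genotypes, 0 to 4 for KAT2AB_KD and 0 to 1 for KAT2B_KD minus NT over 3 stages, and at Differentiated 0 to 1 for KAT2B_KD and for KAT2AB_KD minus NT, 0 to 2 for KAT2A_KD minus KAT2B_KD, 0 to 1 for KAT2AB_KD minus KAT2A_KD, 1 to 8 for KAT2AB_KD minus KAT2B_KD, and 0 to 2 for KAT2AB_KD less NT in Differentiated minus Confluent. The cause was not tested. With 2 libraries per group, differences between knockdowns and NT at 1 stage rest on few libraries, and the lone library left in a group was assumed to vary like those of the other groups. GAR1, RRS1, MNT and LYAR had the fewest counts, 1111, 2132, 2646 and 3683 over all libraries.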
